A study of Homo sapiens with 10 samples.

Results

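The 9 genes KDM1A, HDAC1, HDAC2, PHF21A, HMG20B, ZMYM2, ZMYM3, CTBP1 and CTBP2 encode partners of the CoREST corepressors in the LSD1-CoREST complex. They were chosen by name, as genes of that complex, and no cut-off on a measured value picked them. Earlier results of these data were known when they were chosen, so counts over them only describe them. They are 9 of the 19970 protein-coding genes on chromosomes 1 to 22 and X in the RefSeq gene table (GRCh38). All peaks within the 9 gene bodies plus 20 kb each side were taken, a total of 1160 kb called the gene windows here.

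Chromatin immunoprecipitation followed by sequencing (ChIP-seq) recovers the DNA that a protein sits on, and was done here in Kelly cells, a MYCN-amplified adrenergic neuroblastoma line. The 10 libraries fall into 5 groups of 2. RCOR1 and RCOR3 were each precipitated with their own antibody from untreated Kelly cells. RCOR2 carried a FLAG tag (RCOR2-3xF in the labels) and was precipitated with an anti-FLAG antibody from cells given doxycycline at 2 µg/mL for 48 h. These libraries are called induced RCOR2. The uninduced FLAG libraries used that antibody on RCOR2-3xF cells without doxycycline, and they show which peaks arise without induction. LSD1, the product of KDM1A, was precipitated from untreated cells of another Kelly derivative, which holds an shRNA against RUNX1T1 that doxycycline can switch on. All labels give a time of 48 h. The promoter that drives the tagged RCOR2, and whether either derivative is a single clone, are not stated in the labels. RCOR2 therefore differs from the other proteins in antibody and source, and LSD1 also in cell derivative, and these differences and those between the proteins cannot be told apart.

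In the LSD1-CoREST complex, a CoREST protein (RCOR1, RCOR2 or RCOR3) bridges the demethylase LSD1, which takes methyl groups off histone tails, to the deacetylases HDAC1 and HDAC2, which remove acetyl groups. PHF21A reads unmethylated histone tails, HMG20B is a DNA-binding HMG-box subunit, ZMYM2 and ZMYM3 are MYM-type zinc finger proteins, and CTBP1 and CTBP2 are NAD(H)-binding corepressors that join the complex. The complex is best known for silencing neuronal genes together with the factor REST, and LSD1 is studied as a drug target in neuroblastoma. ChIP-seq peaks at these genes show where the corepressors were found on the DNA, and do not measure how strongly the genes are expressed.

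The stretch just upstream of the transcription start is shown for KDM1A, HDAC1, HDAC2 and HMG20B, because regions of induced RCOR2 covered it at all 4 genes. These genes have a single start in the RefSeq promoter table (GRCh38.p14). Each sequence runs 5′ to 3′ on the gene's own strand and ends 1 base before the start. It covers chr1:23019218-23019467 (plus strand) for KDM1A, chr1:32291833-32292082 (plus) for HDAC1, chr6:113971149-113971398 (minus) for HDAC2 and chr19:3572694-3572943 (plus) for HMG20B. Capitals mark matches on either strand to the GC box (letters GGGCGG) and the CCAAT box, each searched with its reverse complement.
KDM1A: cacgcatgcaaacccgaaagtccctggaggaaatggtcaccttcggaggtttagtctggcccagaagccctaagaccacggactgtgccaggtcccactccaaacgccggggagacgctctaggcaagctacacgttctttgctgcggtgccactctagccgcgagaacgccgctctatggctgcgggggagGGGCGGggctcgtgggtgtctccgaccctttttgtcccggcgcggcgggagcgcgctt
HDAC1: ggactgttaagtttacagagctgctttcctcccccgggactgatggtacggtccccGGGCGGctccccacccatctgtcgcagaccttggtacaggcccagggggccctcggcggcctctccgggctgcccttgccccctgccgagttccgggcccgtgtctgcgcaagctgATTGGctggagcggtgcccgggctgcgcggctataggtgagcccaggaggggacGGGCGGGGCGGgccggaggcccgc
HDAC2: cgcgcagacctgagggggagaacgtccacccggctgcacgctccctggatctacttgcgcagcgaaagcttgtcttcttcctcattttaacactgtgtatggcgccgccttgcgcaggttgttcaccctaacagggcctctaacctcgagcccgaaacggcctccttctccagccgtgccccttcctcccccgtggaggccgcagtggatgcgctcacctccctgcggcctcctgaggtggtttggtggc
HMG20B: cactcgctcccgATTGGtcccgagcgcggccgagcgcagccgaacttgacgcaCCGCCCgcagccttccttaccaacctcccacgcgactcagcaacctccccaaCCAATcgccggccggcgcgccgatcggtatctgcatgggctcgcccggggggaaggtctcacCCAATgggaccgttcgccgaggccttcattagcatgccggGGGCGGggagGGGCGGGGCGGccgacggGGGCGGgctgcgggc
The KDM1A stretch holds 1 GC box, and that of HDAC1 holds 3 GC boxes, 2 of them overlapping, and 1 CCAAT box. HMG20B holds 5 GC boxes and 3 CCAAT boxes. HDAC2 holds neither motif in this window. Among 22131 promoters of the table, 53.7% held a GC box and 32.7% a CCAAT box within the same length, so these motifs are common at starts in general.

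Each deposited list holds the peaks of 1 library. Its fold enrichment is the authors' value for each peak, a ratio of signal over background, and is used here to describe peaks and rank them within their own list. A region is a stretch of merged peaks from both libraries of a protein that holds at least 1 peak of each. The lists differ in length, from 10253 to 75643 peaks per library, and the gene windows held 46 and 18 peaks of RCOR1, 47 and 40 of induced RCOR2, 3 and 9 of RCOR3, 8 and 3 of LSD1 and 10 and 6 of uninduced FLAG. Read depth is unknown. Whether replicates came from separate cultures is not in the labels, so the spread between them may be technical. Regions within 2 kb of a gene end (either end of the gene body) lay at 10 of 10 adrenergic marker genes, 6 of 8 mesenchymal and 1 of 6 of other tissues for RCOR2 (70.8% of all genes). In the same order of lists, RCOR1 had one at 7, 2 and 0 genes (30.5% of all genes), RCOR3 at 5, 1 and 0 (10.6%), and LSD1 at 2, 1 and 0 (4.16%). Such regions do not measure expression, so they do not check the cell type.

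At the gene starts, induced RCOR2 and RCOR1 were found and RCOR3 and LSD1 were not, when both replicates were required. A region of induced RCOR2 lay within 2 kb of a gene end at 9 of the 9 genes, where the share of all protein-coding genes was 70.8%. RCOR1 had one at 6 of 9 (30.5% of all genes), namely KDM1A, HDAC1, PHF21A, HMG20B, ZMYM2 and CTBP2. These 6 had regions of both proteins (29.8% of all genes). RCOR3 had a region at 0 of 9 (10.6%), LSD1 at 0 of 9 (4.16%) and uninduced FLAG at 0 of 9 (5.77%), and no gene had regions of all 4 proteins (1.62%). Most genes in the genome had an RCOR2 region, and few had one of LSD1 or RCOR3, so for these proteins the counts alone do not set the 9 genes apart. Gene ends were used because the promoter table placed a start for only 79.2% of the protein-coding genes. Counted at the listed starts, the same members were called for each protein, at 9 of 9 for RCOR2 (72.2% of 15811 genes with a listed start), 6 of 9 for RCOR1 (31.1%) and 0 of 9 for RCOR3 (10.8%), LSD1 (3.9%) and uninduced FLAG (5.76%). All 9 genes have a listed start, and the values given for the genes below refer to the strongest peak within 2 kb of one.

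**Figure D1:**
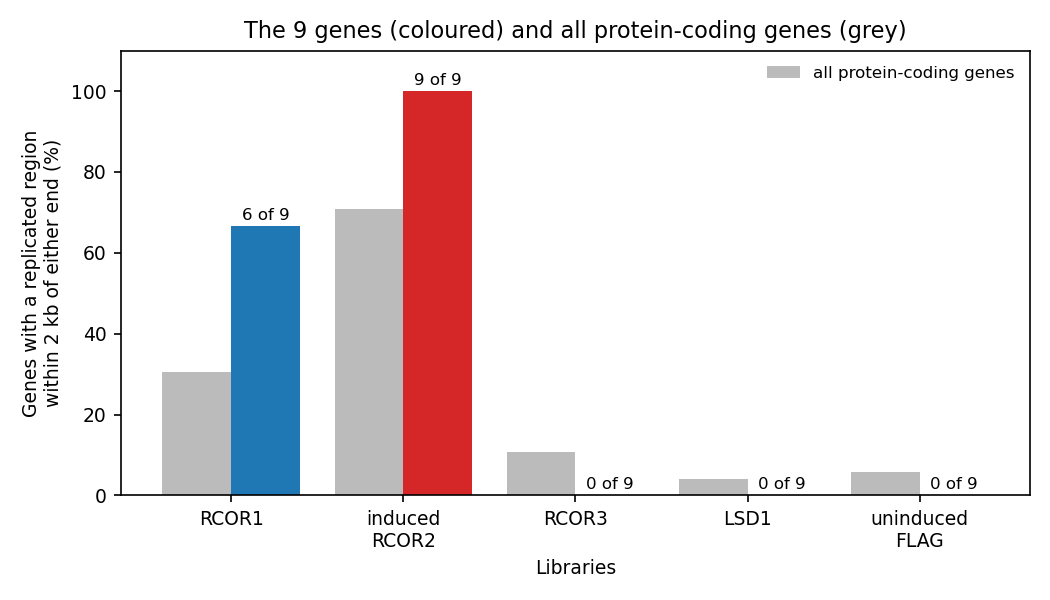
Share of genes (%, vertical axis) with a replicated region within 2 kb of either gene end, for the 9 genes (coloured bars) and all 19970 protein-coding genes (grey bars), by protein. RCOR2 and RCOR1 stand at 9 of 9 and 6 of 9, and RCOR3, LSD1 and uninduced FLAG at 0 of 9.

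At KDM1A, the gene of LSD1 itself, the start region spanned chr1:23019092-23020071 (gene on the plus strand, 23019468 to 23083689). The strongest fold enrichment there was 24.9 and 74.4 in replicates 1 and 2 of induced RCOR2, and 8.72 and 7.35 in those of RCOR1. A single library each of RCOR3 (replicate 2, 6.65) and of uninduced FLAG (replicate 1, 6.61) had a peak, and neither LSD1 library did. RCOR2 thus stood far above the uninduced value in both replicates, and its replicate 2 peak ranked at the 99.4 percentile of that library, the highest rank of the 9 genes in that library. RCOR1 and RCOR2 summits, the highest points of the peaks, lay 121 and 48 bp apart in replicates 1 and 2.

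The deacetylase gene HDAC1 (chr1:32292083-32333626, plus strand) carried a start region at chr1:32291707-32292674. Fold enrichment was 23.7 and 41.7 for induced RCOR2 and 8.88 and 5.62 for RCOR1. RCOR3 replicate 2 had a peak of 6.79. No uninduced FLAG or LSD1 peak was called at the start. An uncalled peak does not show that FLAG background is absent there.

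HDAC2, the gene of the other deacetylase (chr6:113933028-113971148, minus strand), had the strongest RCOR2 peak of the 9 genes in replicate 1. Induced RCOR2 reached 33.5 and 57.6 over chr6:113970255-113971866. RCOR1 was called in replicate 1 only (8.3), with its summit 24 bp from that of RCOR2. HDAC2 therefore does not count among the genes with an RCOR1 region, although its replicate 1 value is close to those of KDM1A and HDAC1 in that library. Uninduced FLAG had a peak of 5.41 in replicate 1, and no RCOR3 or LSD1 peak was called there.

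At PHF21A, the histone reader (chr11:45929319-46121454, minus strand), a broad start region spanned chr11:46119659-46122483. RCOR2 gave 13.8 and 28.7, below 7 of the other 8 genes in both replicates. RCOR1 gave 7.04 and 7.88 and fell into 2 separate regions within it, one with 6.56 and 7.88 and the other, upstream, with 7.04 and 6.3. In RCOR1 replicate 2 this was the highest fold of the 9 genes, while in replicate 1 it lay below KDM1A, HDAC1, HDAC2, HMG20B and ZMYM2. RCOR3 replicate 2 had a peak of 5.22, and no uninduced FLAG peak was called.

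HMG20B (chr19:3572944-3579083, plus strand) is the shortest of the 9 genes, and regions of both RCOR1 and RCOR2 lay at its start and near its 3′ end. The start region chr19:3572451-3574630 had RCOR2 folds of 17.7 and 29.2 and RCOR1 folds of 9.04 and 5.25. RCOR1 split into 2 regions, at 9.04 and 5.24 upstream and at 4.36 and 5.25 about 1.03 kb downstream of the start. Its summits in the strongest peaks of the 2 replicates therefore differ in position. Near the 3′ end, chr19:3576701-3578899 had 12.2 and 37.7 for RCOR2 and 3.58 and 4.73 for RCOR1. Uninduced FLAG replicate 1 had a peak at both places (6.21 and 5.06).

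ZMYM2 has a long gene model in the table (chr13:19863840-20089115, plus strand), whose first base lies in the start region of the neighbouring gene ZMYM5, while its outermost listed start lies 93.6 kb further in. At the listed start, chr13:19957346-19959864 had RCOR2 folds of 24.3 and 46.8 and RCOR1 folds of 5.7 and 5.25. A second, smaller region directly downstream, chr13:19959920-19960413, had RCOR1 folds of 10.1 and 4.85 and RCOR2 folds of only 6.09 and 10.1. In that second region LSD1 replicate 1 (6.35) and RCOR3 replicate 1 (4.94) each had a peak. Of the 9 genes, ZMYM2 alone had any LSD1 peak at a start, in replicate 1 (1 of 9, 9.81% of genes with a listed start) and not in replicate 2 (0 of 9, 5.03%). Uninduced FLAG replicate 1 gave 4.28 in the larger region.

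ZMYM3 (chrX:71239624-71255290, minus strand) and CTBP1 (chr4:1211445-1250355, minus strand) were marked by RCOR2, with few or no peaks called for the other proteins. ZMYM3 had RCOR2 folds of 19.9 and 30.3 over chrX:71254059-71255310 and an RCOR1 peak in replicate 1 only (4.36). CTBP1 had 9.4 and 21.8 over chr4:1247600-1249719, the lowest RCOR2 values of the 9 in both replicates. A weaker RCOR2 region lay inside CTBP1 at chr4:1240331-1240729 (5.53 and 5.32). No peak of RCOR1, RCOR3, LSD1 or uninduced FLAG was called anywhere in the CTBP1 window, against 7 and 4 RCOR2 peaks.

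CTBP2 (chr10:124984317-125162463, minus strand), the paralog of CTBP1, carried more. Its start region chr10:125158725-125162966 is 4242 bp long, with RCOR2 folds of 30.4 and 33.5 and RCOR1 folds of 6.37 and 6.3. Uninduced FLAG replicate 1 had a peak of 5.06 there. The CTBP2 window held 7 RCOR2 regions in all, the most of the 9 genes. The strongest RCOR2 region away from its starts, chr10:125098502-125098884, lay 62.34 kb into the gene with 10.2 and 13.3 and no peak of another library. An RCOR1 region at chr10:125023778-125025223 gave 9.39 and 3.2, with RCOR2 in replicate 1 only (7.74), and it is the single region of the 9 windows that RCOR1 had without RCOR2.

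**Figure D2:**
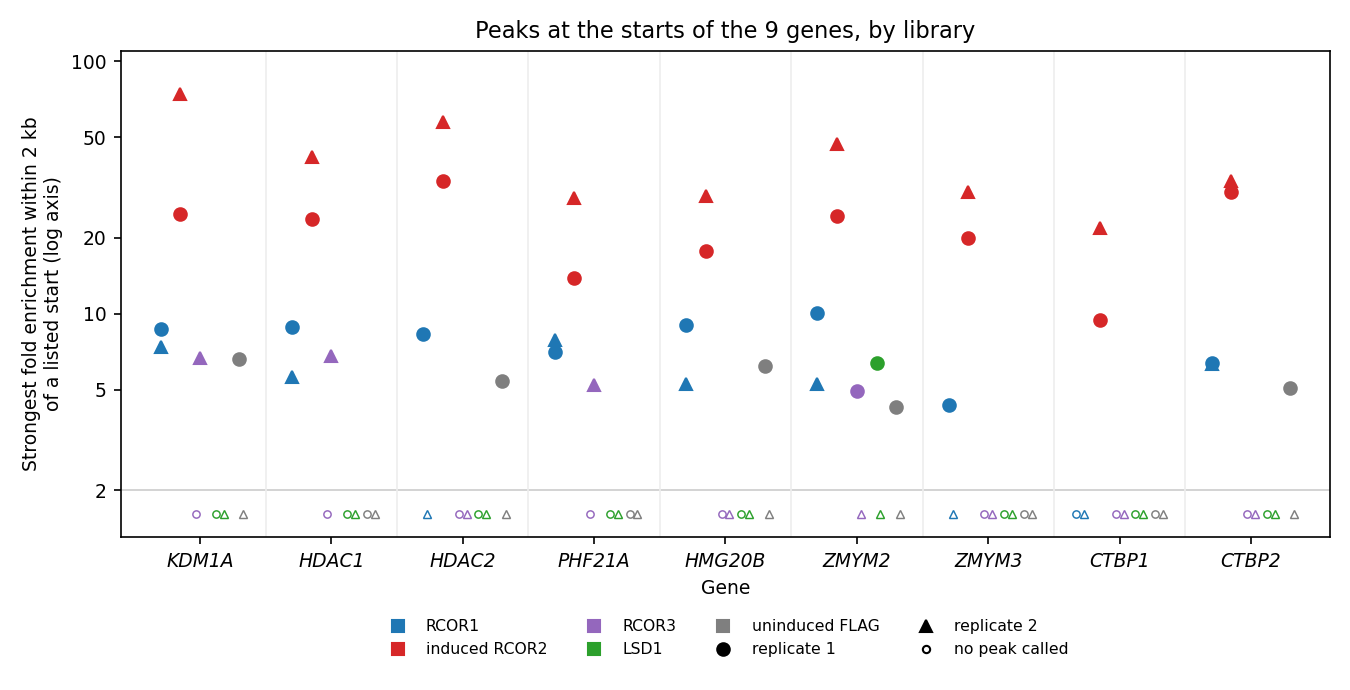
Strongest fold enrichment within 2 kb of a listed start (vertical axis, log scale) for each gene (horizontal axis) in each of the 10 libraries, with circles for replicate 1 and triangles for replicate 2. Open symbols in the strip at the bottom stand for libraries with no called peak. Induced RCOR2 lies above every other library at each gene, between 9.4 and 74.4, and no LSD1 peak appears except at ZMYM2.

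In the median over the 9 genes, RCOR2 peaks at the starts were stronger and wider than over all genes, though not at each gene. The median of the strongest RCOR2 fold was 23.7 and 33.5 in replicates 1 and 2, against 12.8 and 23.3 over all genes with such a peak. Peaks had median widths of 1543 and 1624 bp, against 787 and 797 bp. The CTBP1 folds of 9.4 and 21.8 lay below the medians of all genes. The narrowest RCOR2 peaks were 790 bp (KDM1A, replicate 1) and 517 bp (ZMYM3, replicate 2). For RCOR1 the median fold was 8.51 over 8 genes in replicate 1 and 5.96 over 6 genes in replicate 2, against 6.37 and 5.63 over all genes. The RCOR1 replicate 2 value is thus near that of genes in general. Members with a called peak in RCOR1 replicate 1 were 8 of 9 (58.0% of genes with a listed start) and in replicate 2 were 6 of 9 (35.2%). These are medians of chosen genes and carry no test.

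Each induced RCOR2 library had a peak at a listed start of 9 of 9 genes (75.8% of genes with a listed start in replicate 1 and 76.6% in replicate 2). Replicate 2 had the higher fold at all 9, by 1.1 times at CTBP2 to 2.99 times at KDM1A, with a median of 1.76. Over 11545 genes the replicate 2 value was higher at 85.7%, with a median ratio of 1.74. The gap between the replicates at the 9 genes is therefore that of the libraries as a whole, and the order of the genes is better read within a library. In replicate 1 the order from high to low was HDAC2, CTBP2, KDM1A, ZMYM2, HDAC1, ZMYM3, HMG20B, PHF21A and CTBP1. In replicate 2 it was KDM1A, HDAC2, ZMYM2, HDAC1, CTBP2, ZMYM3, HMG20B, PHF21A and CTBP1. The last 4 places were the same in both, while the first 5 genes came in another order, with CTBP2 behind ZMYM2 and HDAC1 in replicate 2. With 2 libraries, neighbours in these orders cannot be separated beyond their spread.

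Only peaks within 2 kb of a listed start were taken, and each was measured to the nearest one. Short summit distances therefore follow in part from that choice, and distances over all genes were not determined. Distances from the RCOR2 summit to the nearest listed start were 17 to 832 bp (median 338) in replicate 1 and 13 to 631 bp (median 247) in replicate 2. RCOR1 summits lay 34 to 1206 bp (median 272) and 8 to 1108 bp (median 87.5) away. RCOR1 and RCOR2 summits of the same replicate number were 24 to 2025 bp apart over 8 genes in replicate 1, with a median of 356.5 bp, and 48 to 1231 bp over 6 genes in replicate 2, with a median of 472.5 bp. At KDM1A the summits of both proteins lay within 121 bp of each other in both replicates, and ZMYM2 in replicate 1 and HMG20B in replicate 2 had them furthest apart.

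**Figure D3:**
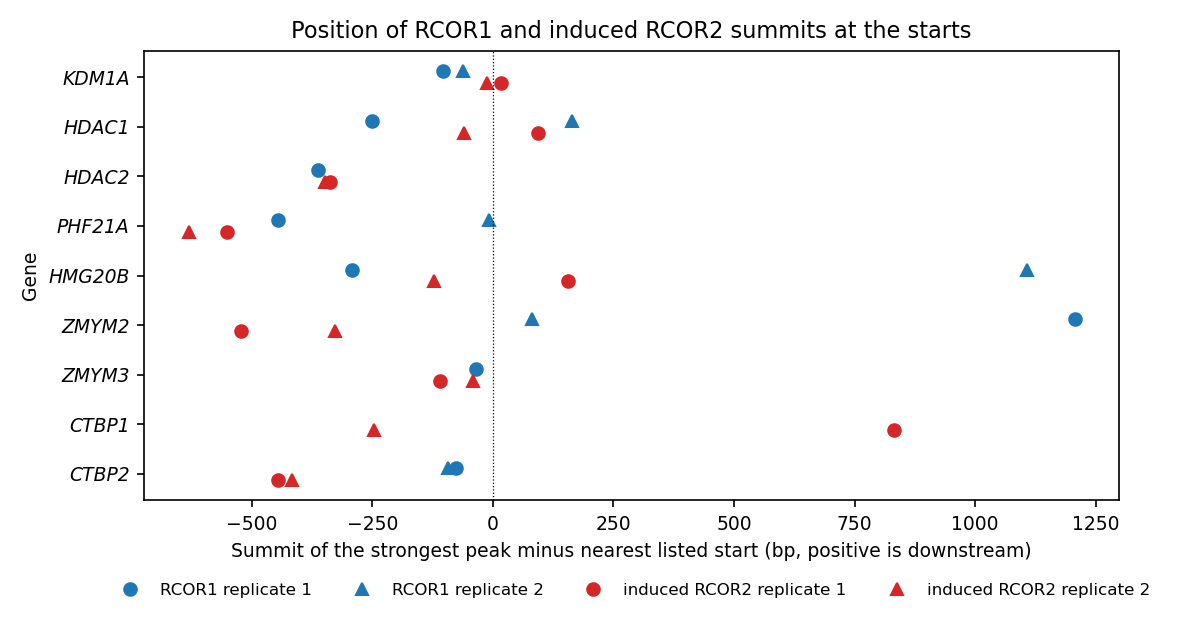
Position of the summit of the strongest RCOR1 (blue) and induced RCOR2 (red) peak relative to the nearest listed start (horizontal axis, bp, positive downstream) for each gene, with circles for replicate 1 and triangles for replicate 2. Most summits lie within 500 bp of the start, and the RCOR1 summits of ZMYM2 replicate 1 and of HMG20B replicate 2 lie 1206 and 1108 bp downstream.

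LSD1 was found inside 3 of the 9 gene bodies, at its own gene KDM1A and at HDAC1 and PHF21A, and always far from the start. A region within the body plus 20 kb each side was present at 22.5% of all genes, so 3 of 9 is close to that share. In KDM1A it lay 46.14 kb downstream of the start, at chr1:23065493-23065725, with folds of 4.1 and 7.83. In HDAC1 it lay 20.1 kb downstream at chr1:32312035-32312322 (4.4 and 5.58), and in PHF21A 70.22 kb downstream at chr11:46051013-46051445 (5.98 and 5.49). Exon and intron boundaries were not used here. RCOR1 replicate 1 had a peak at each of the 3 sites, of 4.36, 9.06 and 2.94, and RCOR1 replicate 2, RCOR2, RCOR3 and uninduced FLAG had none. LSD1 regions and RCOR1 replicate 1 peaks thus overlapped at sites where no induced RCOR2 peak was called. The RCOR1 peaks ranked at the 33.1 (KDM1A), 89.3 (HDAC1) and 2.37 (PHF21A) percentiles of their library. In the same order, LSD1 peaks ranked at 19.5, 24.7 and 59.3 in replicate 1 and at 73.4, 45.3 and 43.0 in replicate 2. Over all 11771 LSD1 regions more than 2 kb from gene ends and listed starts, 82.7% held an RCOR1 replicate 1 peak, 43.9% held one without a replicate 2 peak, 33.8% held an RCOR2 peak and 53.8% an RCOR3 peak. Overlap with RCOR1 replicate 1 is therefore the usual case for such sites. RCOR1 replicate 1 has the longer list of that pair, and what its length adds to the overlap was not tested. LSD1 peaks without replicate support lay in the windows of HDAC2, PHF21A and ZMYM2.

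RCOR3 had 1 region in the windows, 59.08 kb downstream of the HDAC1 start and beyond that gene's 3′ end, at 1 of 9 genes (25.2% of all genes have one in body plus 20 kb). It lay in the merged stretch chr1:32350889-32352274, where RCOR3 gave 3.94 and 4.37, RCOR1 6.28 and 7.67 and RCOR2 20.5 and 45.2. The RCOR3 folds were low for their libraries, at the 21.9 and 18.4 percentiles. Uninduced FLAG replicate 1 had a peak of 5.99 in the stretch, though not over the RCOR3 region itself. That merged stretch was the only region of the windows with 3 proteins. Starts of the non-coding genes LOC105378629 and LOC124903933 lie within 2 kb of it. At the starts, RCOR3 replicate 2 had peaks at KDM1A, HDAC1 and PHF21A (3 of 9, 25.6% of genes with a listed start) and replicate 1 at ZMYM2 alone (1 of 9, 21.5%). The 2 libraries thus called different genes, and none of the 4 in both.

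Taking the regions of the 4 proteins together, the windows held 30 separate stretches. RCOR2 alone accounted for 14, RCOR1 with RCOR2 for 11, LSD1 alone for 3, and RCOR1 alone and the triple with RCOR3 for 1 each. At the starts of the 9 genes lay 12 of them, 7 with RCOR1 and RCOR2 and 5 with RCOR2 alone. Starts of neighbouring protein-coding genes (LCK, MARCKSL1, PEX16, ZMYM5 and MFSD12) took 6, and 12 had no listed protein-coding start within 2 kb. RCOR2 regions lay in the windows of 9 of 9 genes (84.1% of all genes), RCOR1 regions in 6 of 9 (49.6%) and uninduced FLAG regions in those of HDAC1 and HMG20B, 2 of 9 (10.7%). Per 100 kb, the windows held 1.38 RCOR1 and 2.24 RCOR2 regions, against 0.653 and 1.78 in the windows of all protein-coding genes. RCOR3 and LSD1 stood lower than in all gene windows, at 0.0862 against 0.31 and 0.259 against 0.47, values that rest on 1 and 3 regions. Some of the strongest stretches belong to neighbours, such as chr1:32334932-32336792 at the MARCKSL1 start past the 3′ end of HDAC1 (RCOR2 19.9 and 55.3) and chr19:3557022-3558540 at the MFSD12 start near HMG20B (21.6 in replicate 1).

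**Figure D4:**
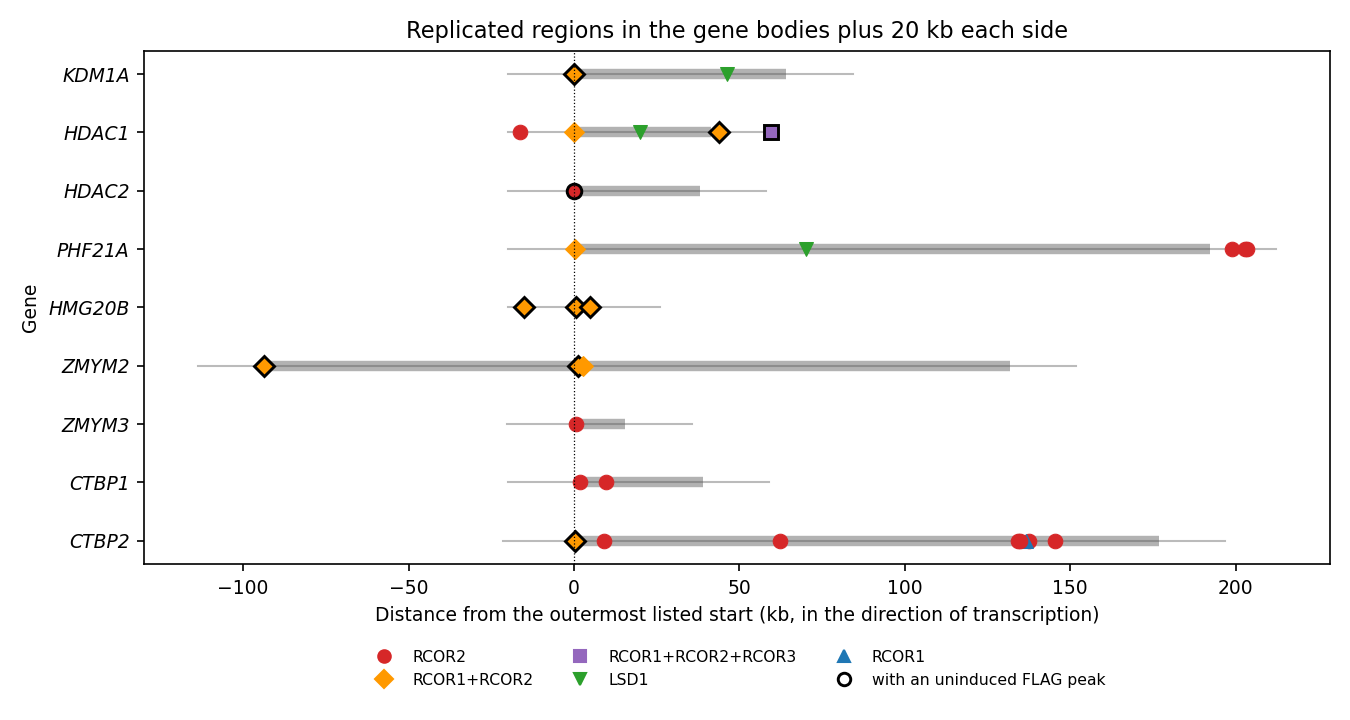
Replicated regions of each gene window by distance of their centre from the outermost listed start (horizontal axis, kb, in the direction of transcription), with thick grey lines for gene bodies and thin lines for the 20 kb flanks. Symbols give the proteins with a region, and a black rim marks an uninduced FLAG peak. RCOR2, alone or with RCOR1, lies at a listed start of every gene, and the 3 LSD1 regions lie 20.1 to 70.22 kb inside HDAC1, KDM1A and PHF21A.

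The FLAG background touched several of these regions. An uninduced FLAG peak lay in 10 of the 26 RCOR2 regions of the windows (38.5%, Wilson 95% interval 22.4 to 57.5%), against 24.4% of 28909 RCOR2 regions in all gene windows. Replicate 1 of the uninduced libraries gave all 10 (38.5%), against 18.2% in all gene windows. Replicate 2 gave 3 of them, at the starts of the neighbours MARCKSL1, ZMYM5 and MFSD12. The replicate 2 share was 11.5% (interval 4.0 to 29.0%), near its 11.8% in all gene windows. At the starts of the 9 genes themselves, 5 had an uninduced peak (31.0% of genes with a listed start have one in either library), namely KDM1A, HDAC2, HMG20B, ZMYM2 and CTBP2, all in replicate 1 (5 of 9, 25.2% of genes) and none in replicate 2 (0 of 9, 13.9%). Their folds of 4.28 to 6.61 lay below the RCOR2 folds of both induced replicates at each of these genes. Medians over all genes with such a peak were 12.8 and 23.3 for induced RCOR2 and 5.06 and 5.03 for uninduced FLAG. The gap therefore does not set these 5 genes apart, and the share of all genes that show it was not determined. HDAC1, PHF21A, ZMYM3 and CTBP1 had no uninduced peak at the start. When regions with an uninduced peak were set aside, 4 of 9 members kept a gene-end region of RCOR2 (HDAC1, PHF21A, ZMYM3 and CTBP1), against 48.9% of all genes, and 3 of 9 one of RCOR1 (HDAC1, PHF21A and HMG20B), against 14.8%. At gene ends, the RCOR2 count is thus near the share of genes in general. Listed starts give further cases. There the second ZMYM2 region also held RCOR1 and RCOR2 without an uninduced peak, and CTBP2 kept weaker RCOR2 regions at an inner start. The share of all genes was not determined at listed starts. The part of the FLAG background in the RCOR2 values was not tested at the starts, since none of the 9 had a peak in all 4 FLAG libraries there. A comparison over 2 against 2 libraries was possible only at the gene-table start of ZMYM2, which is the ZMYM5 start. Induced folds there were 26.0 and 30.3 and uninduced folds 7.78 and 4.72, with no overlap and a difference of 2.21 in mean log2 fold. The exact two-sided permutation test gave p = 0.333, the smallest p this design allows.

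The authors' lists of RCOR2-high and RCOR2-low regions hold positions without values, and the rule behind them is not stated in the labels or the lists. RCOR2-high regions lay at the starts of 6 of the 9 genes (32.8% of genes with a listed start), namely KDM1A, HDAC1, HDAC2, HMG20B, ZMYM2 and CTBP2. RCOR2-low regions lay at 2, PHF21A and ZMYM2 (26.7%), the latter in the second ZMYM2 region where the LSD1 replicate 1 peak was called. ZMYM3 and CTBP1 were in neither list. The 3 LSD1 sites inside KDM1A, HDAC1 and PHF21A all lay in the RCOR2-low list. The share of all LSD1 regions in that list was not determined, so this does not set the 3 sites apart. The members' order by RCOR2 fold does not match the lists throughout, since ZMYM3, with higher RCOR2 folds than HMG20B, was in neither.

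Of 10 further LSD1-CoREST genes, RCOR2 had a gene-end region at 9, all except ZNF217 (70.8% of all genes), RCOR1 at 4 (30.5%), RCOR3 at 2 (10.6%) and LSD1 at 0 (4.16%). RCOR2 is the protein most often called at genes in general, so these counts do not set the list apart. The CoREST genes themselves were among them. At RCOR3 the strongest RCOR2 folds were 78.6 and 96.5, above those of all 9 partner genes, with RCOR1 at 12.9 and 6.2, RCOR3 protein at 6.14 and 7.32 and uninduced FLAG at 5.88 and 10.3. At the gene RCOR2 they were 60.9 and 86.7, with uninduced FLAG at 6.22 and 5.66. At RCOR1 they were 24.9 and 30.3, with an RCOR1 peak in replicate 1 only (4.7). Of 25 genes of related class I HDAC complexes such as SIN3A, NCOR1 and CHD4, RCOR2 had a region at 24 (70.8% of all genes), RCOR1 at 15 (30.5%), RCOR3 at 3 (10.6%) and LSD1 at 0 (4.16%). None of these 35 genes had regions of all 4 proteins.

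Genes elsewhere in the genome had nearly the same profile over the 10 libraries. Likeness was the Euclidean distance between log2(fold + 1) values of the strongest gene-end peak, with 0 where no peak was called, over genes more than 20 kb away. CTBP1 had the closest match, RNF175 at a distance of 0.0, with the same RCOR2 folds of 9.4 and 21.8 and no other peak, followed by RPS6KA1 (0.0333). ZMYM3 was nearest to MOV10 (0.0583) and RCAN1 (0.12), CTBP2 to ZNF827 (0.237) and FAIM (0.414), and HMG20B to SUMF2 (0.272) and NAPB (0.391). The nearest genes of HDAC2 were HNRNPF (0.291) and LATS1 (0.381), those of PHF21A were GIPC1 (0.307) and FIP1L1 (0.478), and those of KDM1A were ANAPC4 (0.428) and NR1H3 (0.452). HDAC1 was closest to WDR24 (0.425) and PLEKHM1 (0.466), with gene-end values that include the MARCKSL1 region. For HMG20B the RCOR2 replicate 2 value of 37.7 is that of the region near its 3′ end, while its start had 29.2. For ZMYM2 the gene-end values are those of the ZMYM5 start region and not of its listed start, and the genes nearest to them were USP3 (0.59) and TAF5 (0.594).

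The promoters of the 9 genes held GC boxes about as often as promoters in general. In the 250 bases upstream of their 21 listed starts, GGGCGG was found on either strand at 12 starts, against 53.7% of all promoters. These 12 starts belonged to 8 of the 9 genes, all but HDAC2. Several genes count more than 1 start, and the share of all genes with a match was not determined. The CCAAT box was found at 5 of the 21 starts (32.7% of all promoters), the E-box CACGTG at 2, of CTBP1 and ZMYM3 (7.37%), and TATAAA at 1, of CTBP2 (9.0%). An NRF1-type motif was at 0 of the 21 (6.58%). GC content of the member starts had a median of 64.0%, against 62.0% over all promoters, and the median number of CpG was 22 against 16. HDAC2, without any of these motifs in the window, had the highest RCOR2 fold of the 9 in replicate 1, and HMG20B, with the most GC boxes of the 4 sequences shown, had the third lowest. In replicate 2 the highest fold was that of KDM1A, with 1 GC box. A relation between these motifs and RCOR2 fold was not tested. A match is a description of the letters and does not show binding of a factor.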

How the data were processed

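Peaks were called with MACS2 after alignment with BWA 0.7.17 to GRCh38, per the submitters' processing notes (deepTools is named there too). The fold enrichment of each peak is a ratio in the lists the authors deposited. The second value used, the −log10 of the q-value, was also deposited by the authors, and its smallest values lie at q = 0.05. The control library, the treatment of duplicate reads and any filter after calling remain not given in the sources used here. In the lists of RCOR1 replicate 2, RCOR3 replicate 2 and FLAG, the peak names and the labels differ in replicate, and the labels were followed.

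Peaks on chromosomes 1 to 22 and X were merged with Python 3.11.15 (numpy 2.4.6, pandas 2.3.3, scipy 1.17.1) at an overlap of at least 1 bp. The interval steps were tested on simulated data. A percentile ranks a peak's fold among all peaks of its library. A start was to be the listed RefSeq start where the promoter table covered at least 80% of protein-coding genes, and otherwise either gene end. It covered 79.2%, so gene ends were used, with listed starts as an alternative chosen after seeing the data. Leaving out regions at the starts of neighbouring genes was also added then. All 9 genes are named, as are the 2 most alike genes of each. The members, gene lists and tests were chosen with earlier results of these data known, so counts over the 9 genes carry no test. Intervals are Wilson 95% intervals and cover counting error only.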

Additional observations from a re-analysis of the deposited data

How the results depend on the processing

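The counts depended on how replicate support was asked for. With peaks of either library, the gene windows held 47 RCOR1 regions (16 with both), 55 of RCOR2 (26), 11 of RCOR3 (1) and 8 of LSD1 (3), and 4 genes had RCOR3 at a gene end in place of 0. Leaving out each replicate gave 18 to 46 RCOR1, 40 to 47 RCOR2, 3 to 9 RCOR3 and 3 to 8 LSD1 regions, and 0 to 4 genes with RCOR3 at an end. With 50% reciprocal overlap, 4 RCOR1 regions were left, and the share of RCOR2 regions with an uninduced peak was 0% in place of 38.5%. At the starts, median widths were 238 bp for uninduced FLAG replicate 1 and 1543 and 1624 bp for induced RCOR2. A 50% reciprocal overlap is hardly possible at such widths, so the 0% does not show a lack of FLAG background. With peaks above each library's median −log10 q, RCOR1 had 7 regions, RCOR3 0 and LSD1 0, and with 13644 top peaks per library RCOR1 had 7, RCOR2 13, RCOR3 0 and LSD1 1. Without regions that hold an uninduced FLAG peak, 8 RCOR1 and 16 RCOR2 regions were left, and 3 and 4 genes with a gene-end region of RCOR1 and RCOR2. Without flanks RCOR3 had 0 regions, and with 50 kb flanks RCOR2 had 46 and LSD1 5. The share with an uninduced peak was 11.5 to 38.5% without either uninduced replicate and 21.3 to 25.0% without either induced replicate, so uninduced replicate 1 carries it. In the other 62 alternative values, counts stayed within 1.5 times, the share within its interval and the difference in direction. LSD1 at 0 of 9 gene ends held under every alternative run. This holds for gene ends only, and the gene-table start of ZMYM2 is not its listed start. At listed starts, LSD1 replicate 1 alone had a peak at 1 of 9, ZMYM2 (9.81% of genes with a listed start). The choice of either gene end is the setting used, so it has no separate value. With a replicate block, the difference of 2.21 at the ZMYM2 gene-table start was 2.21 (exact permutation p = 0.5, the smallest possible), and it was 1.85 to 2.57 without each library in turn and 3.46 with −log10 q in place of fold. Depth is unknown, so an uncalled peak does not show absence, and 2 libraries per group limit the precision of every value.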
